A study of Mus musculus with 2 samples.

Results

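The genes described here are 33 markers of B cells, germinal centres, plasma cells and IgA transport, chosen by symbol from a fixed list that leaves out immunoglobulin variable segments. All 33 are among the 22756 gene rows of the deposited tables, and all 33 had reads in both libraries. Ileum was taken from C57BL/6 mice of wild type genotype, 21 days after birth. One library came from mice that were fed and the other from mice fasted for 48 h, with no further allele or agent named. Each library holds the stretches of mRNA that ribosomes protected from nuclease (footprints), so a count reflects both how much of an mRNA was present and how heavily it was translated. The labels do not say how many animals each library holds or whether the tissue pieces included Peyer's patches. With 1 library per condition every difference below is between those libraries, without a replicate check and without p-values.

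B cells read antigen through a membrane immunoglobulin held by the CD79 signalling pair, and in the gut they are primed mostly in Peyer's patches, where germinal centres form. There many switch from the IgM and IgD isotypes to IgA. Their plasma cell descendants settle in the lamina propria and secrete IgA joined into polymers by the J chain, which the polymeric immunoglobulin receptor of the epithelium (Pigr) carries into the lumen. At weaning, near the age studied here, the IgA plasma cells of the mouse gut are still increasing.

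Footprint counts of these genes were mostly smaller in the fasted library. Genes whose counts in the 2 libraries add up to 30 or more are called measured here. A measured gene was taken as lower or higher when scaled counts differed at least 1.5-fold and the 95% exact interval of the ratio excluded 1. Of the 30 measured members, 20 were lower in the fasted library, 0 were higher and 10 were neither. Among all 11333 measured genes 17.3% were lower and 17.3% higher by the same rule. The median log2 fasted/fed ratio was -0.77 over the measured members and 0.0028 over all measured genes. Blk, Pax5 and Tnfrsf13c stayed under 30 counts. Together the 33 genes took 2.43% of all gene counts in the fed library (95% exact interval 2.42% to 2.45%) and 1.20% in the fasted library (1.19% to 1.21%). Igha, Igkc, Jchain and Pigr made up 97.0% (fed) and 96.4% (fasted) of the member counts. Without them and without Ighm and Ighd, 16 of 24 measured members were lower and 0 higher, at a median of -0.74, a set chosen after the values were seen.

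The fed library held 5558620 gene counts and the fasted library 5434252. Reads assigned to no feature made up 13.4% and 21.0% of all reads counted. Reads without a unique alignment, which add to no gene, made up 41.4% and 39.9%, and reads assigned to a gene 45.0% and 38.9%. Scaling by TMM, which sets the typical gene near a ratio of 1, was used throughout. Plain CPM, which divides by the library total alone, lowers every log2 ratio by 0.32, and by it 22 members were lower and 0 higher while 31.2% of all measured genes were lower and 8.86% higher. Intervals cover counting error only. In bulk tissue fewer cells of a type, less mRNA per cell and less translation of each mRNA cannot be told apart.

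**Figure D1:**
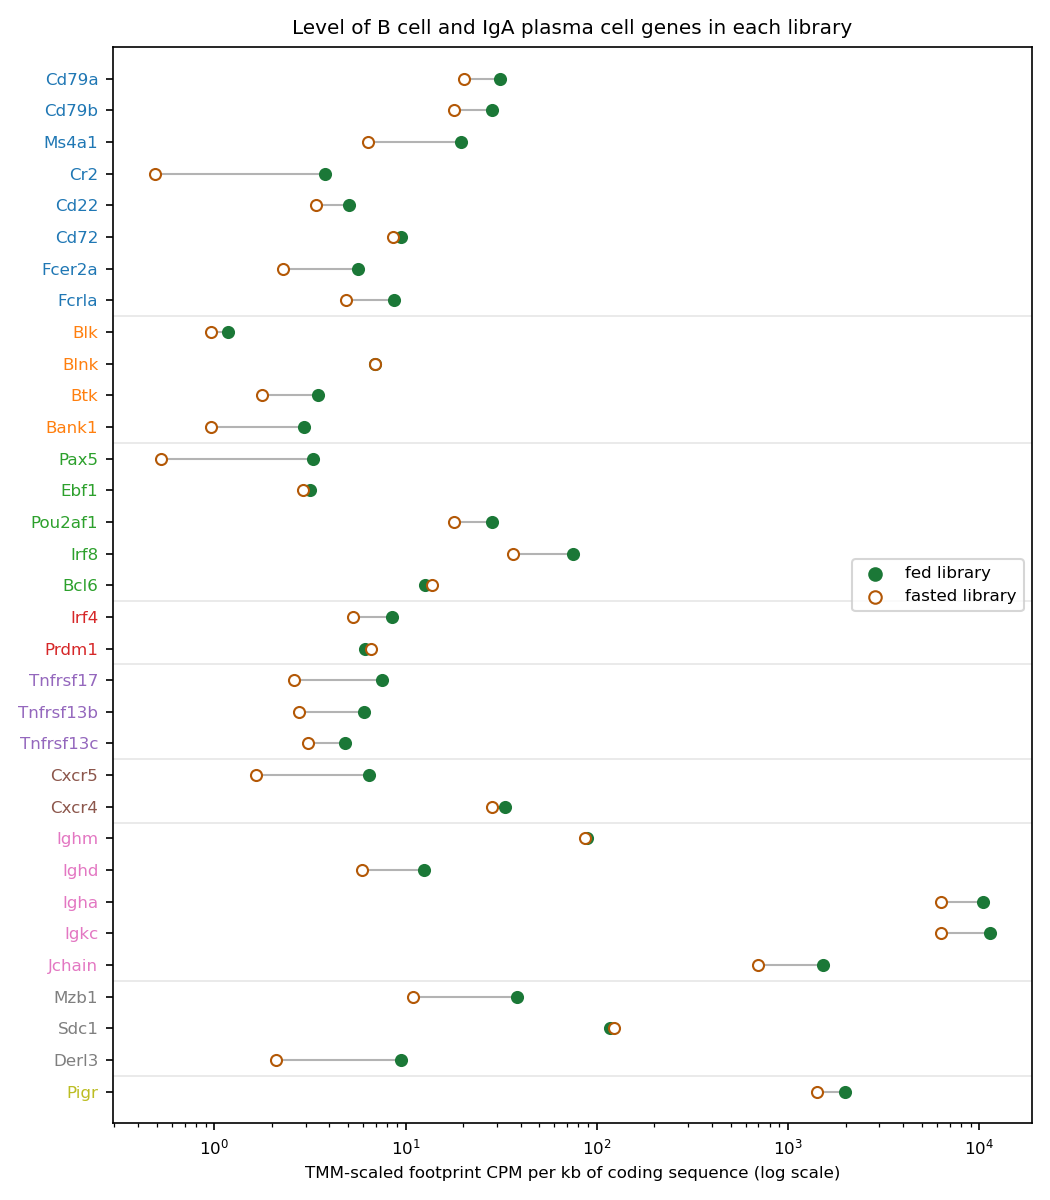
Footprint level of each of the 33 genes in the fed (filled) and fasted (open) library, as TMM-scaled CPM per kilobase of coding sequence on a log axis, grouped by role with name colours. Igkc and Igha lie at 11396 and 10430 in the fed library and at 6278 and 6285 in the fasted library, while Cr2 lies at 3.81 and 0.487.

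The secreted antibody genes carried nearly all of these footprints. Igha, the constant region of the IgA heavy chain (ENSMUSG00000095079, mm10 chromosome 12, 113254830 to 113260236, minus strand), had 75600 counts in the fed library, where it ranked 3 among all genes, and 35609 in the fasted library, where it ranked 13. That was a TMM-scaled CPM of 12161 and 7328, 1.66-fold lower in the fasted library (log2 ratio -0.73, 95% interval -0.75 to -0.71). Igkc, the constant region of the kappa light chain (chromosome 6, 70726435 to 70726966, plus strand), had 22671 and 9762 counts and was 1.82-fold lower (-0.86, -0.89 to -0.83). Jchain, the small protein that links IgA into polymers (chromosome 5, 88519809 to 88527891, minus strand), had 4529 and 1610 counts and was 2.20-fold lower (-1.14, -1.22 to -1.05). The intervals of Igha, Igkc and Jchain do not overlap, so within these libraries Jchain differed most and Igha least of the 3.

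Read per length, heavy and light chain stood close to each other. The level of Igha was 10430 TMM-scaled CPM per kilobase of coding sequence in the fed library and 6285 after fasting, and that of Igkc 11396 and 6278. The ratio of Igha to Igkc per length was thus 0.915 and 1.001. It depends on the coding length used, the longest annotated one, of 1166 bases for Igha and 320 for Igkc. It also takes in kappa chains of other isotypes and leaves out lambda, so it does not measure pairing. Each IgA molecule pairs every heavy chain with a light chain, kappa in most mouse antibodies. Jchain, of which a polymer holds a single copy, lay below both, with Igha at 6.83 times its level per length (fed) and 9.05 times (fasted).

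Ighm and Ighd, the IgM and IgD heavy chains that naive B cells carry together, differed from each other. Ighm (chromosome 12, 113418558 to 113422730, minus strand) had 785 counts in the fed library and 602 after fasting, a log2 ratio of -0.03 (-0.18 to 0.13) and -0.35 with plain CPM. The adjacent Ighd (113406604 to 113416324) had 68 and 25 counts and was 2.13-fold lower (-1.09, -1.81 to -0.41). Both genes are made from the same primary transcript by alternative processing. Of the counts on Ighm and Ighd, Ighd took 7.97% in the fed library (95% exact interval 6.24% to 10.00%) and 3.99% in the fasted library (2.60% to 5.83%), a share within a library that no scaling can move.

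Isotype makeup was dominated by IgA in both libraries. Of all counts on heavy chain constant genes, Igha took 97.8% in the fed library (97.7% to 97.9%) and 97.1% in the fasted library (96.9% to 97.2%). Ighm took 1.02% (0.946% to 1.09%) and 1.64% (1.51% to 1.78%). The 4 IgG genes together took 1.09% (1.02% to 1.17%) and 1.24% (1.13% to 1.36%). Most of the IgG counts lay on Ighg2b, with 653 counts in the fed library and 379 after fasting (log2 ratio -0.43, -0.62 to -0.24; -0.75 and lower with plain CPM). Ighe, the IgE heavy chain, had no count in either library, which allows up to 3 counts in each. The other IgG genes, named because they complete the heavy chain total, had fewer counts. Ighg2c had 63 and 6 (-3.04, -4.54 to -1.83) and Ighg1 86 and 20 (-1.75, -2.53 to -1.03), both lower, while Ighg3 had 43 and 50 (0.57, -0.04 to 1.20) and was neither. The IgG genes resemble each other, and 78.3% to 95.05% of the 28-base windows of their coding sequences were unique among annotated transcripts, so single values are uncertain.

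Light chain use differed more than isotype. Kappa took 96.5% of light chain constant counts in the fed library (96.2% to 96.7%) and 93.2% in the fasted library (92.7% to 93.6%). Within lambda, Iglc1 had 444 and 642 counts, a share of 53.6% (50.1% to 57.0%) and 89.7% (87.2% to 91.8%). Iglc2 had 324 and 51 counts, a share of 39.1% (35.7% to 42.5%) and 7.12% (5.35% to 9.26%). Of 10 measured genes on the list of other immunoglobulin constant and lambda genes, 5 were lower, 4 neither and 1 higher after fasting. The shares over all measured genes were 17.3% lower and 17.3% higher. The higher gene, Iglc1 (log2 ratio 0.89, 0.71 to 1.07), did not reach 1.5-fold with plain CPM (0.56). Iglv1, a lambda variable gene on the same list, had 383 and 408 counts (0.45, 0.24 to 0.65; 0.12 with plain CPM) and was neither, with 55.9% of its windows unique. Iglv2, which shares the remaining windows and was named after its value was seen, had 281 and 11 counts and was lower (-4.32, -5.34 to -3.46). Iglc2 shares part of its sequence with Iglc3, and 64.9% of its windows were unique. Iglc3, named because it completes the lambda total, had 61 and 23 counts and was lower (-1.05, -1.81 to -0.34). Of its windows 40.8% were unique.

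**Figure D2:**
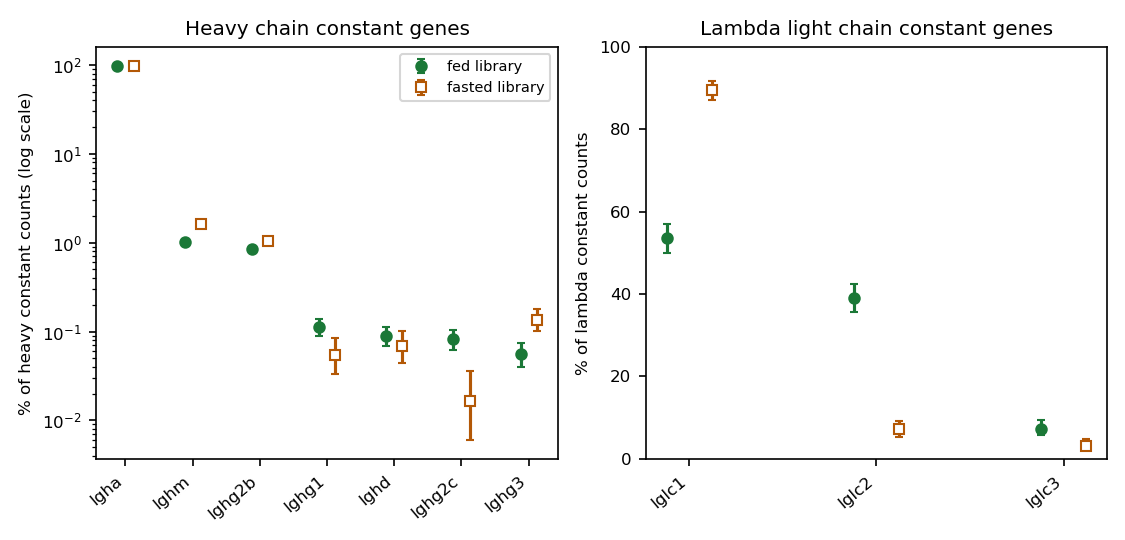
Share of each heavy chain constant gene in all heavy chain constant counts (left, log axis, percent) and of each lambda constant gene in lambda counts (right, percent), in the fed (filled circles) and fasted (open squares) library, with 95% exact intervals as bars. Igha takes over 97% in both libraries, and Iglc1 moves from 53.6% to 89.7% of lambda counts.

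Plasma cell secretory genes had some of the largest differences. Mzb1, an endoplasmic reticulum co-chaperone needed for antibody secretion, had 134 counts in the fed library and 30 after fasting and was 3.49-fold lower (log2 ratio -1.80, -2.43 to -1.22). The GENCODE annotation overlaps it with another gene model on the same strand, SPATA24, and 32.2% of its 28-base coding windows were unique among annotated transcripts, so its value is uncertain. Derl3, a component of the degradation of misfolded proteins in the endoplasmic reticulum (chromosome 10, 75893413 to 75895941, plus strand), had 40 and 7 counts and was 4.47-fold lower (-2.16, -3.56 to -0.99). Sdc1, syndecan-1, the CD138 surface marker of plasma cells that epithelial cells also carry, had 678 and 558 counts and a log2 ratio of 0.07 (-0.09 to 0.24), or -0.25 with plain CPM, and 86.3% of its windows were unique. Per length, Sdc1 stood at 3.06 times the level of Mzb1 in the fed library and 11.2 times after fasting.

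The promoter of Derl3 is shown because it holds the element through which ATF6 and XBP1, factors of the unfolded protein response, are known to act. RefSeq promoter windows (GRCm38.p6, 250 bases before to 50 after a gene's start) were found for 24 of the 33 members, 29 windows in all. The ER stress element, CCAAT and CCACG parted by any 9 bases, was searched on both strands. It occurs in 1 of the 29 windows, that of Derl3 (chr10:75893148-75893447, plus strand), and in 0.119% of 32851 windows of all genes. In the window below, read 5′ to 3′, capitals mark the match, which lies on the opposite strand and begins 156 bases before the start.
Derl3: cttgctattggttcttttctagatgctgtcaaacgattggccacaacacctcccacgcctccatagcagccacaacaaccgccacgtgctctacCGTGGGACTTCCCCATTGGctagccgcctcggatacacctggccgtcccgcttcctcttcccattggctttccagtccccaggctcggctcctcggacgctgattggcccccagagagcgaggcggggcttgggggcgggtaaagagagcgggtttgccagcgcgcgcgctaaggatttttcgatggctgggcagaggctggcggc
Among 20 genes of the secretory list below that have a window, 4 also hold the element. Their matches are set beside that of Derl3, in the orientation of the motif, with its fixed letters in capitals.
Derl3: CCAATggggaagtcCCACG
Hspa5: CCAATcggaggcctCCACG
Hsp90b1: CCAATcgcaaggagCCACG
Hsp90b1, second match: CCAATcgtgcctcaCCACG
Pdia6: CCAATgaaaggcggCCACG
Creld2: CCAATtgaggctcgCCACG
Of all 37 genes with the element 24 are in the files and 14 were measured, of which 8 were lower, 0 were higher and 6 were neither after fasting, beside 17.3% lower among all measured genes. A match describes the letters only. The 8 include Derl3 and the 4 secretory genes shown, which come from lists picked for the topic. These 4 were Hspa5, the chaperone BiP (10588 and 4417 counts, log2 ratio -0.91, -0.96 to -0.86), Hsp90b1 (10988 and 3507, -1.29, -1.35 to -1.24), the disulfide isomerase Pdia6 (1947 and 667, -1.19, -1.32 to -1.06), and Creld2 (272 and 43, -2.31, -2.81 to -1.84). The octamer ATGCAAAT, which recruits the coactivator encoded by Pou2af1, occurs on either strand in 1 of the 29 member windows, that of Blnk, and in 1.74% of all windows. The palindrome bound by EBF1, TCCC and GGGA parted by any 2 bases, occurs on either strand in 1 member window, that of Cd22, and in 0.904% of all. The ER stress element and the palindrome were added to the search after the values were seen.

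Of 21 measured genes on the wider list of plasma cell and secretory genes, 12 were lower in the fasted library, 1 was higher and 8 were neither, at a median log2 ratio of -0.72. With plain CPM 17 were lower. The shares over all measured genes were 17.3% lower and 17.3% higher, or 31.2% and 8.86% with plain CPM. The list joins chaperones and folding enzymes, which goblet and Paneth cells also use, with surface, homing and regulatory genes of plasma cells. Among the latter, named after their values were seen, the homing receptor Ccr10 had 59 counts in the fed library and 13 after fasting (-1.83, -2.82 to -0.94). Xbp1, a factor that acts through the element above, had 968 and 961 counts (0.34, 0.21 to 0.48; 0.02 with plain CPM) and was neither. Ell2, an elongation factor that favours secreted immunoglobulin mRNA, was the higher one, with 139 and 254 counts (1.23, 0.92 to 1.53). Pdia4, a disulfide isomerase and the third of the list by counts, had 2412 and 685 counts (-1.46, -1.59 to -1.34).

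Genes of the B cell receptor complex and its co-receptors were lower in 6 of 8 cases, 0 were higher and 2 were neither (median log2 ratio -0.74). The shares over all measured genes were 17.3% lower and 17.3% higher. Cd79a and Cd79b, the signalling chains of the receptor, stayed near each other in both libraries. Cd79a (chromosome 7, 24897381 to 24902197, plus strand) had 128 counts in the fed library and 65 after fasting and was 1.54-fold lower (-0.62, -1.08 to -0.18), with 71.1% of its windows unique. Cd79b (chromosome 11, 106311341 to 106314762, minus strand) had 152 and 75 counts and was 1.58-fold lower (-0.66, -1.08 to -0.26). Per length the ratio of Cd79a to Cd79b was 1.102 and 1.13, and the proteins form a pair of 1 chain each. Ms4a1, the CD20 surface protein of B cells, had 106 and 27 counts and was 3.07-fold lower (-1.62, -2.28 to -0.997).

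Cr2 differed most of all measured members. It encodes complement receptors CD21 and CD35, carried by mature B cells and by follicular dendritic cells (chromosome 1, 195136811 to 195176716, minus strand). It had 100 counts in the fed library and 10 after fasting, 7.82-fold lower (log2 ratio -2.97, -4.07 to -2.03). Only 0.459% of all measured genes had a lower ratio. Fcer2a, the low-affinity IgE receptor CD23 of the same cells, had 35 and 11 counts (-1.31, -2.44 to -0.30), and Fcrla, an intracellular Fc receptor-like protein of B cells, 57 and 25 (-0.83, -1.57 to -0.13). The inhibitory co-receptors Cd22 (82 and 43 counts, -0.58, -1.14 to -0.03) and Cd72 (64 and 45, -0.15, -0.74 to 0.42) were neither, though Cd22 lay just short of 1.5-fold and counted as lower with plain CPM (-0.90). Counts on Cd22 may include those of Gm29439, a gene model on the opposite strand that shares part of its exons, and the labels name no strand setting for the counting.

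Behind the receptor, Btk, a kinase of receptor signalling, had 43 and 17 counts and was 1.98-fold lower (log2 ratio -0.98, -1.89 to -0.14). Bank1, a scaffold of the same pathway, had 43 and 11 counts and was 3.06-fold lower (-1.61, -2.72 to -0.63). Blnk, the linker that connects the receptor to its effectors, had 59 and 46 counts, which after scaling gave 9.49 and 9.47 CPM and a log2 ratio of -0.0036 (-0.59 to 0.58; -0.33 with plain CPM). Blk, a Src family kinase of B cells, had 11 and 7 counts, too few for a call.

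The transcription factors did not move together. Irf8, shared by B cells and myeloid cells, had 594 counts in the fed library and 225 after fasting, 2.06-fold lower (log2 ratio -1.05, -1.27 to -0.82). Pou2af1, the octamer coactivator of B and plasma cells, had 135 and 67 counts (-0.66, -1.10 to -0.22), and Irf4, required for plasma cells, 71 and 35 (-0.67, -1.29 to -0.06). Pax5, which sets B cell identity and is switched off in plasma cells, had 24 and 3 counts, under the 30-count minimum, with a ratio of -2.64 (-5.02 to -0.93). Ebf1, a B cell factor that stromal cells also express, had 35 and 25 counts (-0.13, -0.93 to 0.65). Bcl6, the germinal centre repressor, had 166 and 141 counts (0.12, -0.21 to 0.45; -0.20 with plain CPM). Prdm1, the plasma cell factor Blimp-1, had 98 and 82 counts (0.10, -0.34 to 0.54; -0.22 with plain CPM). Prdm1 is also known in the enterocytes of suckling mice and Bcl6 in many cell types, so neither marks the B lineage alone here.

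Receptors for survival and homing signals were mostly lower. Tnfrsf17, the APRIL receptor BCMA of plasma cells, had 26 counts in the fed library and 7 after fasting (log2 ratio -1.54, -2.99 to -0.30). Tnfrsf13b, TACI, which binds both BAFF and APRIL, had 28 and 10 (-1.13, -2.34 to -0.05). Tnfrsf13c, the BAFF receptor, had 18 and 9 counts, under the minimum (-0.64, -1.98 to 0.58). Cxcr5, which draws B cells into follicles, had 45 and 9 counts and was 3.91-fold lower (-1.97, -3.18 to -0.92). Its annotated exons overlap those of Bcl9l on the opposite strand. Cxcr4, a chemokine receptor of many leukocytes, had 222 and 148 counts (-0.23, -0.54 to 0.08; -0.55 with plain CPM).

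Pigr, the epithelial end of the pathway, was among the 15 genes with most counts in the fed library. This receptor (chromosome 1, 130826684 to 130852249, plus strand) had 28426 counts in the fed library and 15979 after fasting, a TMM-scaled CPM of 4573 and 3289. The ratio was 1.39-fold down (log2 ratio -0.48, -0.50 to -0.45), short of 1.5-fold, while with plain CPM it counted as lower at 1.74-fold (-0.80). Per length, Igha stood at 5.28 times the level of Pigr (fed) and 4.42 times (fasted). The 14 epithelial markers described below ranged from -1.10 to 0.65 in log2 ratio, at a median of 0.066. Pigr lies within that range but below the median and below most of these markers. Per length, Pigr stood at 0.615 times the level of the marker Epcam (fed) and 0.434 times (fasted).

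**Figure D3:**
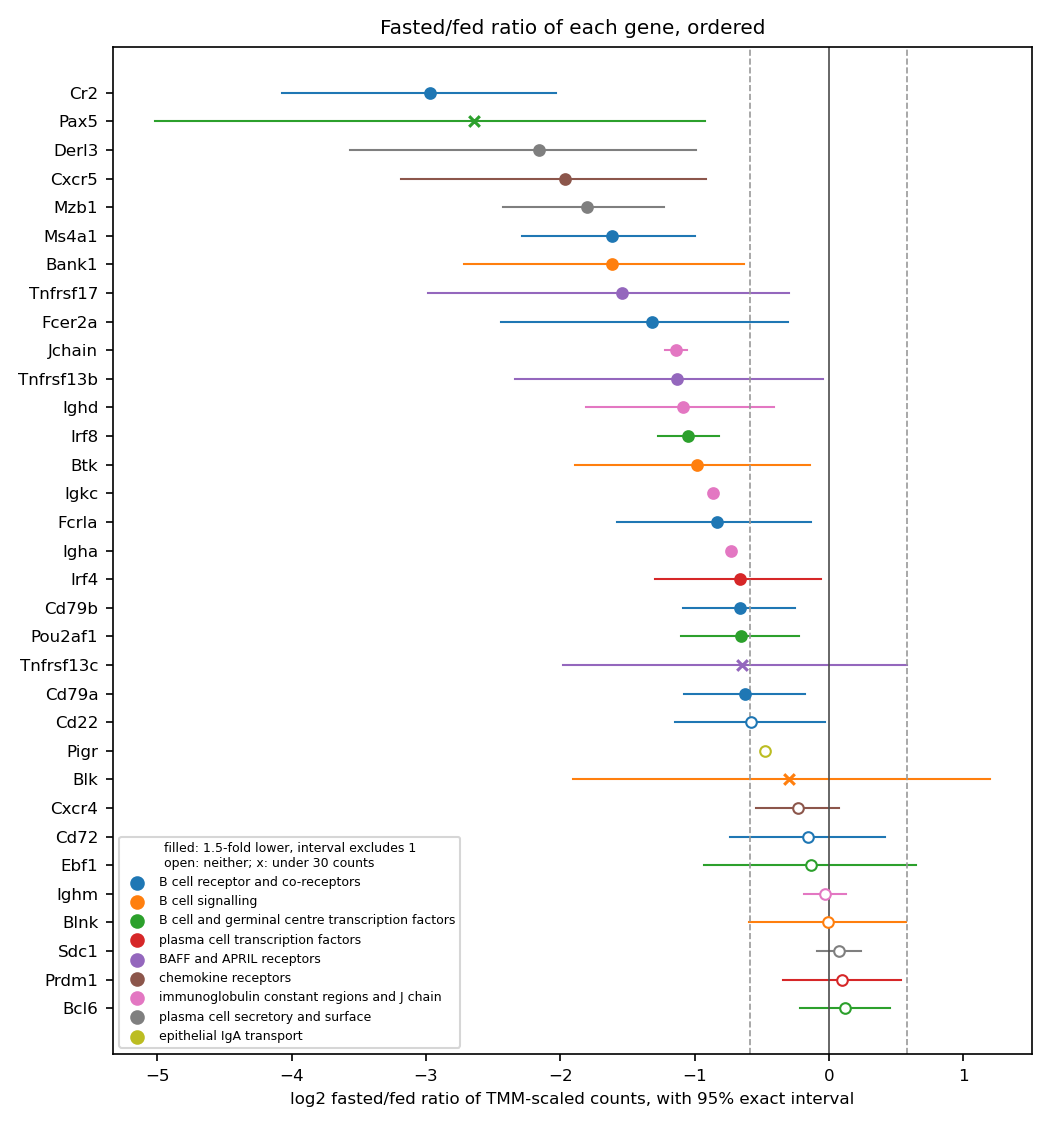
Log2 fasted/fed ratio of TMM-scaled counts for each of the 33 genes, ordered, with 95% exact intervals. Filled points mark the 20 genes counted as lower, open points the 10 that are neither and crosses the 3 under 30 counts, and dashed lines mark 1.5-fold. Cr2 is lowest of the measured genes at -2.97 and Bcl6 highest at 0.12.

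The order of the ratios is loose. In all 29 neighbouring pairs of measured members the intervals overlapped, so no neighbour in the order is set apart from the next. Counts below 100 leave wide intervals, and 10 of the 20 lower members were no longer lower when the interval's error rate was 0.1% in place of 5%, among them Cd79a, Cd79b, Pou2af1, Irf4 and the measured BAFF and APRIL receptors. Those that still were are Ms4a1, Cr2, Bank1, Irf8, Cxcr5, Igha, Igkc, Jchain, Mzb1 and Derl3.

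Other B cell genes gave similar counts. Of 21 measured genes 13 were lower, 1 higher and 7 neither, at a median log2 ratio of -0.83. The shares over all measured genes were 17.3% lower and 17.3% higher. Plcg2, a phospholipase of receptor signalling, had 462 counts in the fed library and 145 after fasting (-1.32, -1.60 to -1.04), and Swap70, a switching-associated protein, 262 and 110 (-0.90, -1.23 to -0.57). Ptpn6, an inhibitory phosphatase (421 and 222, -0.57, -0.81 to -0.33), and the kinase Lyn (208 and 153, -0.09, -0.40 to 0.22) were neither. Bach2, a repressor that holds back plasma cell differentiation, was the higher one, with 24 and 54 counts (1.53, 0.81 to 2.28), and was named after its value was seen. Of 7 measured germinal centre genes 5 were lower, 1 higher and 1 neither (median -1.09). They included Cd38 (838 and 327 counts, -1.002), the chemotactic receptor Gpr183 (69 and 15, -1.85) and the uracil glycosylase Ung (66 and 24, -1.10) on the lower side, and the death receptor Fas (95 and 127, 0.77; 0.45 with plain CPM) on the higher.

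Signals that feed and attract these cells were mixed. Of 7 measured genes 2 were higher, 2 lower and 3 neither (median log2 ratio -0.41). With plain CPM 1 was higher and 4 were lower. The shares over all measured genes were 17.3% lower and 17.3% higher, or 31.2% and 8.86% with plain CPM. With only 7 genes no difference from these shares is read here. Ccl25, the chemokine of the small intestinal epithelium that draws IgA plasma cells, had 3545 counts in the fed library and 4613 after fasting (0.74, 0.67 to 0.80; 0.41 with plain CPM). Cxcl12, the ligand of Cxcr4, had 167 and 41 (-1.67, -2.20 to -1.17). The retinoic acid enzymes differed in direction, Aldh1a1 at 1217 and 2156 counts (1.18, 1.08 to 1.28) and Aldh1a2 at 163 and 72 (-0.82, -1.24 to -0.41).

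Markers of neighbouring cells give the setting. Among all measured genes 17.3% were lower and 17.3% higher, or 31.2% and 8.86% with plain CPM. Pan-leukocyte genes had 12 of 16 lower, 1 higher and 3 neither (median log2 ratio -0.79), and summed over the list reached 0.0901% of the gene counts of the fed library and 0.0436% of those of the fasted one. Ptprc, the common leukocyte antigen CD45, had 804 and 344 counts (-0.87, -1.06 to -0.69), Coro1a 670 and 332 (-0.66), Lcp1 660 and 295 (-0.81) and Laptm5 524 and 333 (-0.30). MHC class II genes, which B cells, dendritic cells and gut epithelium can all express, had 7 of 9 lower and 0 higher (median -0.80), led by Cd74 with 17476 and 7092 counts (-0.95, -0.99 to -0.91). H2-Ab1, H2-Aa and H2-Eb1 followed at -0.69, -0.64 and -0.68. T cell markers had 1 of 14 lower, 0 higher and 13 neither (median -0.30; 5 lower with plain CPM), summing to 0.0118% and 0.0082% of gene counts. Among them Cd3g had 69 and 33 counts (-0.71, -1.35 to -0.09), Cd3e 52 and 30 (-0.44), Cd8a 60 and 41 (-0.19), Thy1 79 and 52 (-0.25), Cd3d 22 and 14 (-0.30) and Cd4 96 and 101 (0.43).

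Beside 17.3% lower among all measured genes (31.2% with plain CPM), macrophage and dendritic cell markers had 2 of 14 lower, 1 higher and 11 neither. Their median was -0.019 (-0.34 with plain CPM, by which 6 were lower). Members differed among themselves. Csf1r, the macrophage growth factor receptor, had 863 and 706 counts (log2 ratio 0.07), lysozyme Lyz2 593 and 362 (-0.36), and the complement genes C1qb 412 and 465 (0.53) and C1qa 406 and 439 (0.47). The macrophage marker Adgre1 had 182 and 97 (-0.55) and the integrin Itgax 294 and 170 (-0.43). The integrin Itgam, named after its value was seen, had 474 and 156 counts and was lower (-1.25, -1.52 to -0.98). Epithelial markers had 2 of 14 lower, 1 higher and 11 neither, at a median of 0.066 (-0.26 with plain CPM), ranging from Elf3 at 3524 and 1281 counts (-1.10), named after its value was seen, to Vil1 at 22303 and 27446 (0.65; 0.33 with plain CPM). Among those of most counts Lgals4 stood at 0.45, Cdh17 at 0.26 (-0.07 with plain CPM) and the adhesion protein Epcam at 0.03 (-0.29 with plain CPM). The markers Cdh1, Krt20 and Krt8 stood at 0.15, 0.02 and -0.30, or -0.18, -0.31 and -0.63 with plain CPM. Of 5 measured genes of follicular dendritic cells and Peyer's patch stroma, 2 were lower, 1 higher and 2 neither (median -0.42). The lower ones were the lymphotoxin receptor Ltbr (231 and 111 counts, -0.70, -1.04 to -0.37) and Tnfaip2 (159 and 81, -0.62, -1.02 to -0.22). The higher one was Gp2, a receptor of M cells (22 and 31, 0.85, 0.02 to 1.71; 0.53 and neither with plain CPM), named after its value was seen. Cxcl13, the ligand of Cxcr5 made in follicles, had 90 and 73 counts (0.05, -0.41 to 0.51; -0.27 with plain CPM), and Madcam1, the vessel adhesion molecule for gut-homing lymphocytes, 96 and 56 (-0.42, -0.92 to 0.07; -0.74 and lower with plain CPM). The share of lymphoid tissue in each library and the part these cell types have in the lower B cell counts was not tested, nor were differences between the lists.

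**Figure D4:**
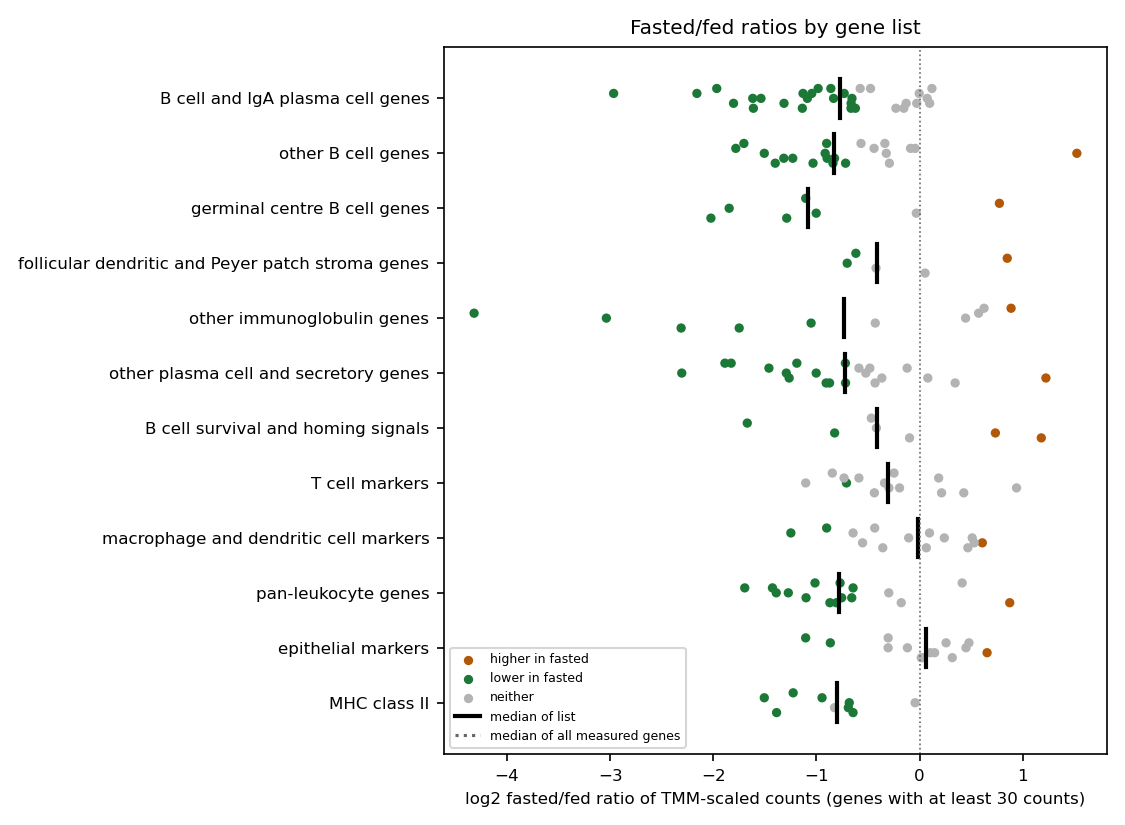
Log2 fasted/fed ratio of TMM-scaled counts for each measured gene of the B cell and plasma cell set and of 11 other lists, coloured by call, with the list median as a black bar and the median of all measured genes as a dotted line. Medians of the B cell, germinal centre, secretory, pan-leukocyte and MHC class II lists lie between -1.09 and -0.72, and those of macrophage and epithelial markers near 0.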

How the data were processed

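The deposited values are raw read counts of ribosome-protected fragments per gene symbol, 1 table per library, not normalised by the authors, per the file headers and values. Per the submitters' processing notes the build was mm10 and the software HTSeq, STAR, Bowtie 1.1.2 and cutadapt, listed without role or order. No source used here gives the annotation, the strand setting or a footprint length filter. Entries given as NA were read as 0, and totals of unassigned reads stayed out of library sizes.

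Libraries were scaled with TMM in edgeR 4.0.16 (R 4.3.3), used for scaling only. Ratios carry 95% exact intervals (Clopper-Pearson, on the split of a gene's counts between libraries). List medians use 0.5 counts added to each count. Amplified reads are not independent molecules, so intervals and the limit of 3 counts for a count of 0 cover counting error only. Symbols were matched to GENCODE vM21 (all 33 members) for 1-based coordinates and the longest coding length, and promoter windows come from RefSeq. The functions were tested on simulated libraries.

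Members and lists were chosen with earlier results of these data known. Every member is named, with up to 4 genes of most counts per other list, the cell type markers listed for T cells, macrophages and epithelium, IgG genes, genes with the motif shown, and genes stated as chosen after their values were seen. Members were also to be searched for protein motifs, which was not done. H2-Ob, Ciita and Cd38 stand in more than 1 list.

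Alternatives were plain CPM, DESeq2 1.42.0 size factors, upper-quartile factors, TMM without abundant genes, other minimum counts, a 2-fold threshold, intervals with an error rate of 0.1%, 2 added counts and means.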

Additional observations from a re-analysis of the deposited data

How the results depend on the processing

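With 20 members lower and 0 higher as the reference, DESeq2 size factors gave 20 lower, upper-quartile factors and TMM without ribosomal protein, mitochondrial, immunoglobulin and the 20 most abundant genes 21 each, plain CPM 22 and no minimum count 21, with 0 higher in each. A minimum of 200 counts left 6 lower members, a 2-fold threshold 12 and an interval with an error rate of 0.1% 10, since fewer genes qualify. The 6 were Cd79b, Pou2af1, Irf8, Igha, Igkc and Jchain. The other members with 200 counts, Bcl6, Cxcr4, Ighm, Sdc1 and Pigr, were neither. Counts over all genes with an error rate of 0.1% are not given here, so the 10 stand without a background. The member median of -0.77 became -1.10 with plain CPM and -0.65 with 200 counts. Over all genes, 1956 higher and 1962 lower became 1004 and 3536 with plain CPM (median -0.32), 1187 and 892 with 200 counts, and 935 and 1035 at 2-fold. The plain CPM and 2-fold counts are out of the same 11333 genes, those with 200 counts out of fewer. With plain CPM the log2 ratios of Bcl6, Prdm1 and Sdc1 changed sign to -0.20, -0.22 and -0.25. The median of the plasma cell secretory and surface genes became 0.075 with 200 counts, where only Sdc1 remained. B cell signalling genes, plasma cell factors, BAFF and APRIL receptors and T cell markers had no member with 200 counts. Dividing by gene counts without immunoglobulin and the 20 most abundant genes made the member share 2.95% and 1.51%, and Igha was 98.97% (fed) and 98.34% (fasted) of Igha and Ighm alone. No paired analysis was possible because each group has 1 library, and no library could be left out. At few counts small differences are hard to call, as for Ebf1 at 35 and 25 counts, with an interval of -0.93 to 0.65. Btk, at 43 and 17 counts, was still called lower at 1.98-fold. The smallest difference that the depth allows was not computed.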

Other observations

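Variable segments of the heavy and kappa chains, left out of the gene set, differed widely among themselves. Of 213 segments listed, 128 were measured. After fasting 77 of these were lower, 19 were higher and 32 were neither, at a median log2 ratio of -0.95. With plain CPM 86 were lower and 14 higher. Among all measured genes 17.3% were lower and 17.3% higher, or 31.2% and 8.86% with plain CPM. Single segments ranged from -4.50 to 4.10 on the log2 scale. Summed, they took 0.422% of gene counts in the fed library (95% exact interval 0.417% to 0.428%) against 0.186% after fasting (0.183% to 0.190%), a log2 ratio of -0.86. Segments resemble each other, and how the counting divided reads between them was not tested.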
